A study of Mus musculus with 12 samples.

Results

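Gfap, Aqp4, Aldh1l1, Slc1a2, Slc1a3, Gja1, S100b, Fabp7, Clu and Sparcl1 are 10 genes widely used as markers of astrocytes, and they were followed across 4 cell populations sorted from mouse glioblastoma (GBM). They were taken by symbol from the table of expression values, and 10 of 10 were found among its 18180 genes. The tumors were end-stage EGFR+ GBMs of mice that carry a conditional human EGFR transgene, a germline deletion of Cdkn2a (Cdkn2a-/-) and a conditional luciferase reporter, on a mixed background. All groups shared the same genotype. Tumors were started by injecting a lentivirus that carries Cre recombinase into the striatum of adult mice, so that the transgene was switched on only in cells that took up virus; the study gives ages only as ranges over all its experiments, and the cell types infected are not given in the sources used here for these tumors. Cells positive for EGFR were sorted with a second antibody into PDGFRA+ and PDGFRA- cells (the labels write PDGFR), or into cells positive (GAL1+) and negative (GAL1-) for galectin-1. Each population was taken from 3 tumors (T3, T4 and T5), which gave 12 bulk RNA-seq libraries with n = 3 per population and no sample from normal brain.

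Astrocytes are the glial cells that clear glutamate and potassium from the extracellular space, supply neurons with metabolites and seal the blood vessels of the brain with their endfeet. Their markers serve these tasks: Slc1a2 (GLT-1) and Slc1a3 (GLAST) encode the glutamate transporters, Fabp7 a fatty acid carrier that is also abundant in radial glia and neural progenitors, S100b a calcium-binding protein, Clu (clusterin) and Sparcl1 (hevin) secreted proteins, Gfap an intermediate filament, Aqp4 the endfoot water channel, Gja1 (connexin 43) a gap junction protein, and Aldh1l1 an enzyme of folate metabolism. Glioma cells can express much of this program, and such cells are called astrocyte-like (AC-like). Oligodendrocyte progenitor cells (OPCs) and neural stem cells also express several of these genes, among them Fabp7, Slc1a3 and S100b, so that no single marker identifies an astrocyte.

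The promoters of 4 members are shown because they carry the contrast described below: Fabp7, Slc1a2 and Slc1a3 differed between the galectin-1 sorts, and Gfap did not pass the test. Each is the strand that encodes the gene, 5′ to 3′, from 250 bases before to 50 after the start annotated by RefSeq (GRCm38.p6), which lies at chr10:57784673-57784972 on the plus strand for Fabp7, chr2:102706188-102706487 on the plus strand for Slc1a2, chr15:8710758-8711057 on the minus strand for Slc1a3 and chr11:102897151-102897450 on the minus strand for Gfap. For Slc1a2 and Gfap this start lies inside the gene annotated by GENCODE M21, which begins at chr2:102658659 and, on the minus strand, at chr11:102900912. Capitals mark, on either strand, the nuclear factor I (NFI) letters TTGGC, the SOX letters ACAAAG, the STAT letters TTCNNNGAA and the TATA box letters TATAAA.
Fabp7: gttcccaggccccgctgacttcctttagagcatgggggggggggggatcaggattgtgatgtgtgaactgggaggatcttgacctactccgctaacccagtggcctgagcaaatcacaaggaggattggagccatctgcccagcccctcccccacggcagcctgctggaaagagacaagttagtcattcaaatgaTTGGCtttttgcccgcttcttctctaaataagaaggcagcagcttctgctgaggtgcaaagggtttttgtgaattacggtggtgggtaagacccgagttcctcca
Slc1a2: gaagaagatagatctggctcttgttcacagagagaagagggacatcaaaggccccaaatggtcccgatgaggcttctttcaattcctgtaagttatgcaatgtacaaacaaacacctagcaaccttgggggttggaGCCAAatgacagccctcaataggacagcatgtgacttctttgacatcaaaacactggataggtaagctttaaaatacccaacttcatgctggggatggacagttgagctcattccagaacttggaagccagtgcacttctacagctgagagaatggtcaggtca
Slc1a3: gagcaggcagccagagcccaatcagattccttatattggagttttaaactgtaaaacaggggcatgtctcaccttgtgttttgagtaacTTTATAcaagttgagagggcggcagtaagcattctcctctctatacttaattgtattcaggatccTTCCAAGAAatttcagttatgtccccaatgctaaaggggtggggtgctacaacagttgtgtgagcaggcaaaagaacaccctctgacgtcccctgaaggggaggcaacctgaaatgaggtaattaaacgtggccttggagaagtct
Gfap: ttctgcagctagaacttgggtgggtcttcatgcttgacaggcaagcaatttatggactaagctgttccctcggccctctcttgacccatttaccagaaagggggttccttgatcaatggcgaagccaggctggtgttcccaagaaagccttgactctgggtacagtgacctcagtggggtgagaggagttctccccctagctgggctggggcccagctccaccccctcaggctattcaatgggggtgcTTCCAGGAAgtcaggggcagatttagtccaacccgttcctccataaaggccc
RefSeq sequences were matched for 7 of the 10 members, and Aqp4, Clu and Sparcl1 had no entry. The Aldh1l1 window, not printed, also lies inside its annotated gene. TTGGC was present in 3 of these 7 windows (Fabp7, Slc1a2 and, with 4 matches, S100b), against 46.7% of all 32851 promoter windows of the same length. TTCNNNGAA was present in Gfap and Slc1a3, or 2 of 7, against 8.3% of all windows. TATAAA was present in Slc1a3 alone (13.6% of all windows), and ACAAAG in none of the 7 (18.7% of all windows). These matches describe letters only.

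Recovered depth ran from 9851175 to 24117541 reads per library, and a floor of 3 reads stood at a log2 CPM (reads of a gene relative to the library total, log2 scale) of -2.99 to -1.44, which covers counting error only. All 10 members were above this floor in all 12 libraries, with Aqp4 the thinnest at 21 to 198 reads. The sorted genes moved with their labels in the galectin-1 sort: Lgals1, which encodes galectin-1, was 1.29 ± 0.22 (log2 fold change ± SE) higher in GAL1+ than in GAL1- cells (limma, adjusted p = 0.000967). Pdgfra was 1.60 ± 0.41 higher in PDGFRA+ than in PDGFRA- cells, higher in 3 of 3 tumors, but this missed the threshold (adjusted p = 0.249). Although the study describes the sorted cells as CD45-, Ptprc, which encodes CD45, had a mean log2 CPM of 8.65 ± 0.40 (SD, n = 3) in GAL1+ against 4.60 ± 0.79 in GAL1- cells, and of 7.46 ± 1.06 for the PDGFRA- and 6.92 ± 0.70 for the PDGFRA+ gate. The summed level of 12 pan-leukocyte markers was 2300 to 3350 CPM in the GAL1+ libraries and 76.3 to 187 CPM in the GAL1- libraries, with 579 to 2630 for PDGFRA- and 535 to 1250 for PDGFRA+ sorts, and none of the 12 was at or under 3 reads in all libraries of a group. The PDGFRA- library of T5 stood apart from the other PDGFRA- libraries, with the highest pan-leukocyte level of its group and the lowest summed level of the 10 members (420 CPM). In bulk RNA, fewer cells of a type and less RNA per cell cannot be told apart.

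Glutamate transporter, lipid-binding and secreted-protein genes were lower in GAL1+ than in GAL1- cells, while Gfap, Aqp4, Aldh1l1 and Gja1 did not pass the test. Of the 10 members, 6 were called lower and 0 higher, where called means a limma p under 0.05 after adjustment for 18180 tests. Over all 18180 genes 58.2% were called, 29.3% lower and 28.9% higher, so that the count of 6 in 10 stands at the background for calls in either direction but all 6 lay on the lower side. The median log2 fold change of the 10 members was -1.11, beside -0.03 over all genes.

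Slc1a2, the main glutamate transporter of mature astrocytes, had the largest difference among the members. Its log2 CPM was 7.84, 7.86 and 8.11 in the GAL1- libraries of T3, T4 and T5 and 6.17, 4.83 and 5.18 in the GAL1+ libraries. The groups did not overlap, and GAL1+ was lower by -2.54 ± 0.35 on the log2 scale (adjusted p = 0.00024). Slc1a3, the transporter shared by astrocytes and radial glia, stood at 8.13, 7.37 and 7.43 in GAL1- and at 6.89, 5.59 and 5.65 in GAL1+ libraries. Its difference of -1.61 ± 0.27 (adjusted p = 0.000824) held in 3 of 3 tumors and ran from -1.25 in T3 to -1.79 in T5.

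Fabp7, the fatty acid carrier, had log2 CPM values of 9.05, 8.20 and 8.21 in GAL1- and 7.70, 6.17 and 5.54 in GAL1+ libraries of T3, T4 and T5. All GAL1+ values lay below all GAL1- values, with a difference of -2.02 ± 0.32 (adjusted p = 0.000557). S100b, the calcium-binding protein, stood at 5.20, 5.42 and 5.65 in GAL1- and at 3.75, 4.71 and 3.76 in GAL1+ libraries. The groups did not overlap (-1.35 ± 0.25, adjusted p = 0.00133), and T4 had the smallest of the 3 differences, -0.71. S100b overlaps Dip2a, which lies on the opposite strand and is also in the table, and the strand setting of the counting is not given in the sources used here.

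Clu and Sparcl1, which encode secreted proteins, differed unequally. Clu stood at a log2 CPM of 6.46, 6.18 and 7.12 in GAL1- and at 5.16, 3.26 and 4.58 in GAL1+ libraries, a difference of -2.25 ± 0.36 (adjusted p = 0.000531). Sparcl1 stood at 8.70, 8.30 and 8.35 in GAL1- and at 8.18, 7.44 and 7.14 in GAL1+ libraries. Neither gene overlapped between the groups, but the Sparcl1 difference was the smallest of the 6 (-0.86 ± 0.22, adjusted p = 0.00778) and missed the threshold without T4 (adjusted p = 0.0529) and without the tumor as a block (adjusted p = 0.124).

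The other 4 members had no called difference, and their intervals were wide. Gfap stood at 5.05, 6.41 and 6.16 in GAL1- and at 5.43, 6.43 and 4.71 in GAL1+ libraries, so that GAL1+ was lower in T5 alone and close to or above GAL1- in T3 and T4 (-0.35, 95% interval -1.24 to 0.54, adjusted p = 0.474). For Gja1 the difference was 1.12 with an interval of -0.50 to 2.73 (adjusted p = 0.208), higher in GAL1+ cells of T3 and T4 and lower in T5. Aqp4 gave -0.60 (-1.36 to 0.17, adjusted p = 0.158) and Aldh1l1 -0.13 (-1.08 to 0.82, adjusted p = 0.806). When T3 was left out, Aldh1l1 was called lower in GAL1+ cells (-0.85, adjusted p = 0.0442).

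**Figure D1:**
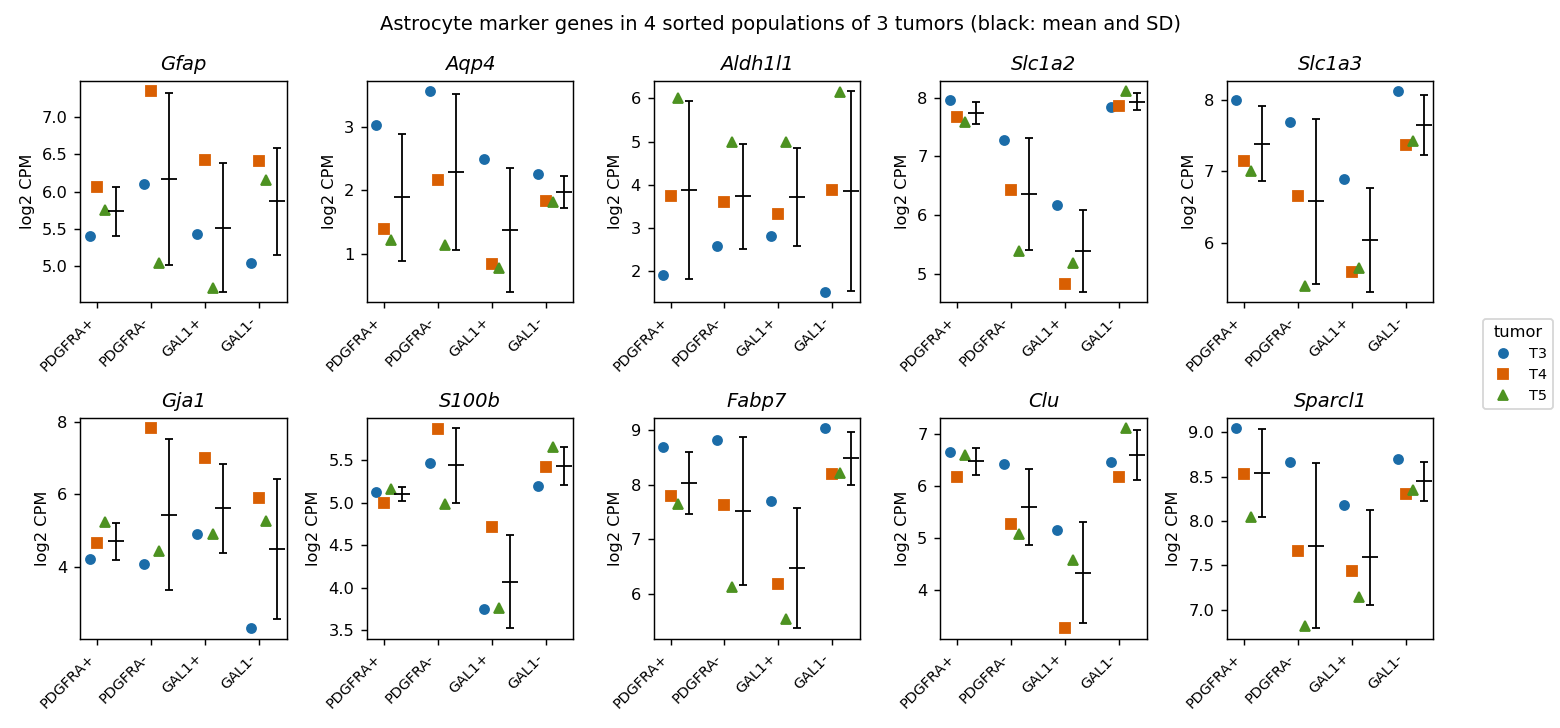
Log2 CPM of the 10 members (one panel each, with its own vertical scale) in the PDGFRA+, PDGFRA-, GAL1+ and GAL1- libraries of T3, T4 and T5, with the mean and SD of each population in black. GAL1+ libraries are lowest for Slc1a2, S100b, Fabp7 and Clu in 3 of 3 tumors, while Aldh1l1 is ordered by tumor, T5 above T4 above T3, in all 4 populations.

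The comparison of PDGFRA+ with GAL1+ cells asks how the populations defined by the respective positive gates differ, and the members repeated the pattern with the direction turned, using the same GAL1+ libraries. The same 6 genes were called, all higher in PDGFRA+ cells, where 38% of all genes were called, 20.9% higher and 17% lower. Slc1a2 had log2 CPM values of 7.96, 7.66 and 7.59 in PDGFRA+ libraries, a difference from GAL1+ of 2.34 ± 0.35 (adjusted p = 0.00187). Clu had 6.66, 6.18 and 6.59 in PDGFRA+ libraries, 2.14 ± 0.36 above GAL1+ (adjusted p = 0.00261). The PDGFRA+ values of both genes lay above every GAL1+ value and varied little between tumors.

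Fabp7 was 1.57 ± 0.32 higher in PDGFRA+ cells (adjusted p = 0.00593) and Slc1a3 1.35 ± 0.27 higher (adjusted p = 0.00583). S100b differed by 1.02 ± 0.25 (adjusted p = 0.0123) and Sparcl1 by 0.95 ± 0.22 (adjusted p = 0.00966). Each of these genes was higher in 3 of 3 tumors, but the ranges of Fabp7 and Sparcl1 overlapped between the populations, with the GAL1+ library of T3 above the PDGFRA+ library of T5. Without the tumor as a block 3 of the 10 members were called: the adjusted p rose to 0.102 for Slc1a3, 0.119 for Fabp7 and 0.136 for Sparcl1. S100b was not called without T3 (adjusted p = 0.156) or T5 (adjusted p = 0.0597), nor Sparcl1 without T4 (adjusted p = 0.0713). Gfap, Aqp4, Aldh1l1 and Gja1 were not called.

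No member was called between PDGFRA+ and PDGFRA- cells, and neither was any other gene (0% of 18180 in limma, with a smallest adjusted p of 0.181 and 2137 genes at an unadjusted p under 0.05). Of the members, 4 had an unadjusted p under 0.05. Slc1a2 was 7.28, 6.42 and 5.39 in the PDGFRA- libraries of T3, T4 and T5, with PDGFRA+ above it by 1.37 ± 0.35 (limma, adjusted p = 0.244). Sparcl1 gave 0.82 ± 0.22 (adjusted p = 0.254), Clu 0.88 ± 0.36 (adjusted p = 0.391) and Slc1a3 0.81 ± 0.27 (adjusted p = 0.321). All 4 were higher in PDGFRA+ cells of 3 of 3 tumors, and each differed most in T5, the tumor whose PDGFRA- library had the highest pan-leukocyte level of its group. The part of that level in these differences was not tested.

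The other members had no unadjusted p under 0.05 in this comparison. Fabp7 differed by 0.52 with an interval of -0.20 to 1.24, Aldh1l1 by 0.15, Aqp4 by -0.40, Gfap by -0.43 and S100b by -0.35. For Gja1 the mean difference of -0.74 rested on T4, where the PDGFRA- library stood at 7.84 and the PDGFRA+ library at 4.66, a gap of -3.18. Gfap was also highest in that PDGFRA- library, at 7.35.

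**Figure D2:**
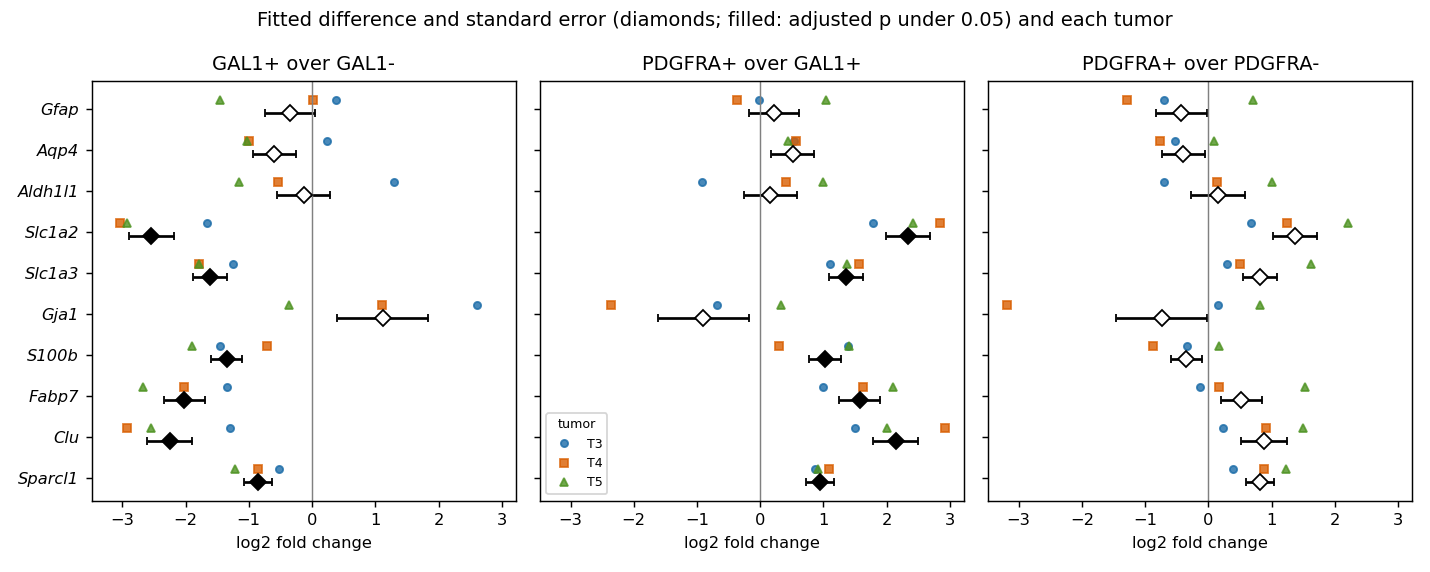
Log2 fold changes of the 10 members between GAL1+ and GAL1-, PDGFRA+ and GAL1+, and PDGFRA+ and PDGFRA- cells, as the limma estimate with its standard error (diamonds, filled where the adjusted p was under 0.05) and as the value in each tumor (small symbols). The filled diamonds are Slc1a2, Slc1a3, S100b, Fabp7, Clu and Sparcl1, all below 0 in the first panel and above 0 in the second, and the third panel has none.

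The difference between the GAL1+ over GAL1- and the PDGFRA+ over PDGFRA- log2 fold changes was also tested. Fold changes of opposite sign in the sorts add up in this difference. It therefore cannot tell whether the sorts split the cells differently or alike with the positive gates reversed. All 6 genes called in the galectin-1 sort passed this test in the negative direction, where 51.1% of all genes were called, 24.9% in that direction. The difference was -3.91 ± 0.49 for Slc1a2 (adjusted p = 0.00035) and -3.14 ± 0.50 for Clu (adjusted p = 0.000875). It was smallest for S100b (-1.01 ± 0.35, adjusted p = 0.0377), which went the other way in T4 (0.15). The S100b call was lost without T3 (adjusted p = 0.179), without T5 (adjusted p = 0.35), without the PDGFRA- library of T5 (adjusted p = 0.0919) and without the tumor as a block (adjusted p = 0.0686), as was that of Fabp7 without the block (adjusted p = 0.0568). For Gja1 the difference was 1.85 (adjusted p = 0.153), for Gfap 0.08 and for Aldh1l1 -0.29, none called, although Gfap was called without T5 (1.19, adjusted p = 0.0198) and Aldh1l1 without T3 (-1.43, adjusted p = 0.0326).

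Populations were also compared across the sorts. Between PDGFRA+ and GAL1- cells 0 of 10 members were called, with 8.27% of all genes called (0.011% lower in PDGFRA+). At an unadjusted p under 0.05 in limma stood 0 of 10 members, beside 3150 of 18180 genes. For Slc1a2 the interval of the PDGFRA+ over GAL1- difference was -0.98 to 0.58 and for Sparcl1 -0.40 to 0.59, so that differences up to these bounds could not be told from none. These 2 populations were not alike in other markers. In PDGFRA+ cells 12 of 12 pan-leukocyte, 9 of 10 macrophage and 9 of 10 endothelial markers were called higher (medians 2.81, 4.42 and 2.12), against 8.26% of all genes. The mean of PDGFRA- cells lay between those of GAL1- and GAL1+ cells for Slc1a2, Slc1a3, Fabp7, Clu and Sparcl1. PDGFRA- cells exceeded GAL1+ cells in S100b (1.37 ± 0.25, adjusted p = 0.0104), Clu (1.26 ± 0.36, adjusted p = 0.0366) and Fabp7 (1.05 ± 0.32, adjusted p = 0.0463), or 3 of 10 members where 20.1% of all genes were called, 13.2% higher and 6.91% lower. They were below GAL1- cells in Slc1a2 (-1.57 ± 0.35, adjusted p = 0.0123), Slc1a3 (-1.06 ± 0.27, adjusted p = 0.0232) and Sparcl1 (-0.73 ± 0.22, adjusted p = 0.0405), or 3 of 10 where 23.1% were called, 6.88% lower and 16.2% higher. Mature oligodendrocyte markers moved with the called members against GAL1+ cells: 10 of 10 were called higher in PDGFRA- cells (median 2.48). Against GAL1- cells they went the other way, with 3 of 10 called higher in PDGFRA- cells and 0 lower (median 1.07). Their summed levels were 965 to 1300 CPM in PDGFRA-, 216 to 369 in GAL1+ and 580 to 845 in GAL1- libraries. None of these markers was at or under 3 reads in all libraries of a group. Their part in the members' differences was not tested. The counts of members depended on the libraries fitted, and so did the counts over all genes. Without the PDGFRA- library of T5, 7 members differed between PDGFRA- and GAL1+ cells, with 5837 of all genes called in place of 3652. Between PDGFRA- and GAL1- cells 2 members differed in that fit, with 2009 of all genes called in place of 4200. Without all T3 libraries 0 members differed between PDGFRA- and GAL1+ cells, with 788 of all genes called. Without all T4 libraries 0 of all genes were called in that comparison, so the 0 members there do not single out the members.

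The members differed in how far their level followed the population or the tumor. Over the 12 libraries the population took 81.7% of the sum of squares of Slc1a2, 77.1% of that of S100b and 73.3% of that of Clu, beside a median of 50.5% over all genes. Aldh1l1 was at the opposite end, with 0.253% for the population and 90.2% for the tumor. Averaged over the 4 populations, T3 stood at 2.21, T4 at 3.63 and T5 at 5.54, a range of 3.33 on the log2 scale, and 0.22% of all genes had a tumor share at least as large. Its values in GAL1- cells were 1.52, 3.87 and 6.16, and in PDGFRA- cells 2.59, 3.59 and 4.99, and T3, T4 and T5 had this order in the other populations too.

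The tumor also took the largest share for Aqp4 (69%), Gja1 (55.6%) and Gfap (54%), against a median of 22.4% over all genes. The tumors did not rank alike for these genes. Aqp4 was highest in T3 in each population, with log2 CPM values of 2.26 to 3.56 against 0.79 to 2.16 in the other tumors. Gja1 was highest in T4 in PDGFRA-, GAL1+ and GAL1- cells (7.84, 7.01 and 5.91), and its lowest value was the GAL1- library of T3, at 2.29. For Slc1a3, Fabp7 and Sparcl1 the shares were more even, with 51.1%, 48.2% and 43% for the population and 38.9%, 42.1% and 45.4% for the tumor. With 1 library per population and tumor, differences between tumors had no replicate, and they were not tested.

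**Figure D3:**
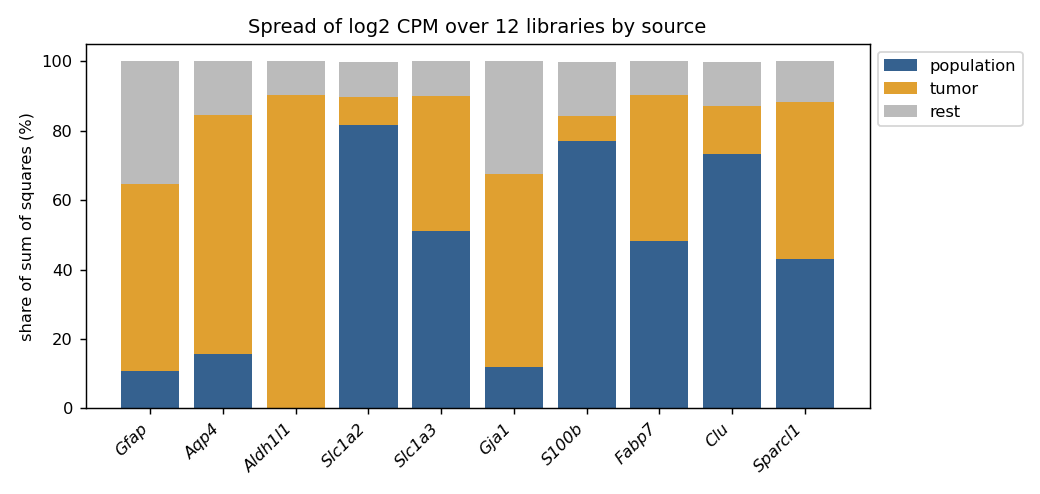
Share of each member's sum of squares of log2 CPM over 12 libraries (vertical axis, percent) that lay between populations, between tumors and in the rest. Slc1a2, S100b and Clu lie mostly between populations, and Aldh1l1 (90.2% between tumors) and Aqp4 (69%) mostly between tumors.

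Levels of different members can be compared only per length of transcript. As log2 CPM per kilobase of annotated exons, averaged over the tumors, Fabp7 had the highest mean in all 4 populations, from 6.15 in GAL1+ to 8.17 in GAL1- cells. Sparcl1 came next, at 6.98 in GAL1- and 6.12 in GAL1+ cells, so that the gap between them all but closed in GAL1+ cells. The order of these means did not hold in each tumor: in the GAL1+ libraries of T4 and T5 Sparcl1 stood above Fabp7 per length. Gfap stood at 3.85 in GAL1- and 3.72 in PDGFRA+ cells. Aldh1l1 stood at 1.79 in GAL1- and 1.65 in GAL1+ cells, and Aqp4 was lowest, at -0.59 and -1.19. The mean of Slc1a2 exceeded that of Gfap per length in GAL1- cells (4.34) and was below it in GAL1+ cells (1.80). In the GAL1- library of T4 this order was reversed, with Gfap above Slc1a2 per length.

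Other astrocyte genes were counted in lists that exclude the 10 members. Of 38 measured genes of mature astrocytes (41 listed), 26 were called lower and 6 higher in GAL1+ than in GAL1- cells, with a median log2 fold change of -1.68, beside the 29.3% lower and 28.9% higher of all genes and their median of -0.03. The lower genes included Acsbg1, an acyl-CoA synthetase (-2.77 ± 0.35, adjusted p = 0.000163), and Ntsr2, a neurotensin receptor with 6 to 41 reads per GAL1+ library (-3.31 ± 0.44, adjusted p = 0.000202). The higher genes included Pla2g7, a secreted phospholipase that macrophages and microglia also make (5.08 ± 0.39, adjusted p = 3.93e-05), and Slco1c1, a thyroxine transporter also known from brain endothelium (3.23 ± 0.19, adjusted p = 3.93e-05). All 10 macrophage markers were called higher in GAL1+ cells (median 6.11), as were 9 of 10 endothelial markers (median 2.69), against 28.9% of all genes. The part of these cells in the astrocyte genes that were higher was not tested.

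Of the astrocyte transcription factors, 8 of 9 were called lower in GAL1+ than in GAL1- cells (29.3% of all genes), 0 higher, with a median of -1.50. Sox2, a factor of neural stem cells and astrocytes, stood at 7.10, 6.87 and 6.82 in GAL1- and at 5.39, 4.34 and 3.98 in GAL1+ libraries of T3, T4 and T5. Its difference was -2.36 ± 0.24 (adjusted p = 5.81e-05). The LIM homeobox factor Lhx2 (-2.81, with 9 to 46 reads per GAL1+ library) and Rfx4 (-2.35) were lower by similar amounts. The reactive astrocyte list is made of genes that astrocytes raise after injury. Of its 12 genes 4 were called higher, a share near the 28.9% of all genes, and 1 lower (29.3% of all genes), with a median of 0.57. Cp, which encodes ceruloplasmin, was 2.59 ± 0.26 higher in GAL1+ cells (adjusted p = 5.58e-05) and Cd44, a hyaluronan receptor also found on leukocytes, 1.28 ± 0.12 higher (adjusted p = 4.94e-05). Serpina3n, a protease inhibitor much used as a reactive marker, was the gene called lower (-1.37 ± 0.40, adjusted p = 0.014).

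The same lists were counted between PDGFRA+ and GAL1+ cells, which share the GAL1+ libraries with the comparison above. PDGFRA+ cells were called higher for 24 and lower for 4 of the mature astrocyte genes (median 1.47), and of the transcription factors 8 higher and 0 lower (median 1.15), where 20.9% of all genes were called higher and 17% lower. Ntsr2 was 3.12 ± 0.44 higher in PDGFRA+ cells (adjusted p = 0.0017). Glul, which encodes the glutamine synthetase that converts the glutamate taken up by astrocytes and which macrophages also express, was among the genes called lower in PDGFRA+ cells (-1.05 ± 0.25, adjusted p = 0.0119). Of the reactive list 1 gene was called higher (Serpina3n, 1.15 ± 0.40, adjusted p = 0.0456) and 3 of 12 lower, close to the shares of all genes. No gene of these lists was called between PDGFRA+ and PDGFRA- cells, where the median log2 fold change was 0.50 for the mature astrocyte, 0.53 for the transcription factor and -0.02 for the reactive list.

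Marker levels of other cell types also differed between GAL1+ and GAL1- cells. All 11 OPC markers were called lower in GAL1+ than in GAL1- cells (median -2.87) and all 12 pan-leukocyte markers higher (median 4.44), beside 29.3% lower and 28.9% higher of all genes. Of 10 markers of mature oligodendrocytes, the myelin-forming cells, 9 were called lower (median -1.44) and 0 higher. Egfr itself, the mouse gene, was lower by -2.10 ± 0.32 in GAL1+ cells (adjusted p = 0.000461). It is not known from the sources used here whether reads of the human EGFR transgene were counted on this row, so the value is no measure of the gated protein. The markers did not move with the members in every comparison. Between PDGFRA+ and GAL1- cells, where 0 of 10 members were called, 12 of 12 pan-leukocyte markers were called higher in PDGFRA+ cells (median 2.81). None of the 11 OPC markers was called there (median -0.44). Mature oligodendrocyte markers had a median of -1.84 for PDGFRA+ over PDGFRA- cells, none called, while the median of the members was 0.34. Over the 12 libraries, which share tumors and sorts, Pearson's r with the mean level of the pan-leukocyte markers was -0.77 for Slc1a2, -0.75 for Slc1a3 and -0.746 for Fabp7. It was -0.673 for Clu, -0.635 for S100b, -0.603 for Sparcl1, -0.361 for Aqp4, -0.195 for Gfap, 0.199 for Aldh1l1 and 0.263 for Gja1. With the mean of the OPC markers r was 0.911 for Slc1a2, 0.908 for Clu, 0.862 for Fabp7, 0.818 for Slc1a3, 0.748 for S100b and 0.7 for Sparcl1. For the members not called it was 0.566 for Aqp4, 0.229 for Gfap, -0.116 for Aldh1l1 and -0.328 for Gja1. These correlations are descriptions, and the part of leukocytes or of OPC-like cells in the members' differences was not tested.

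**Figure D4:**
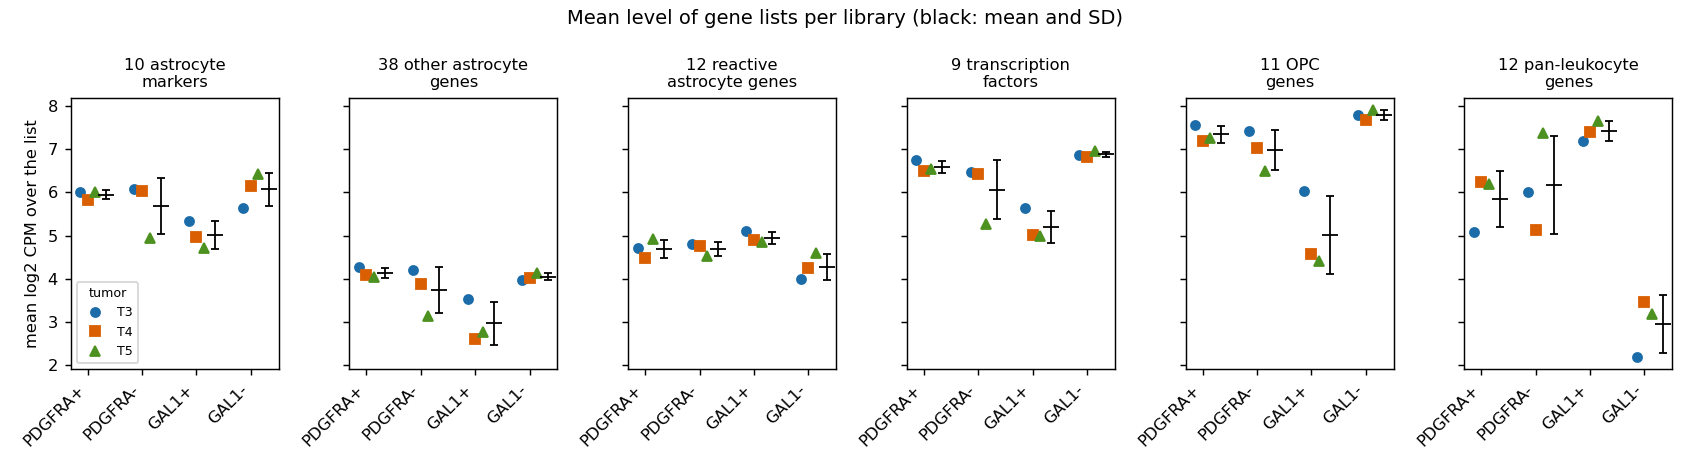
Mean log2 CPM over the genes of each list in every library (symbols by tumor; black: mean and SD of 3 libraries), for the 10 members, 38 other mature astrocyte genes, 12 reactive astrocyte genes, 9 astrocyte transcription factors, 11 OPC genes and 12 pan-leukocyte genes. The pan-leukocyte mean is 7.42 in GAL1+ and 2.95 in GAL1- cells, the OPC and transcription factor means have the opposite order, and the reactive list means lie between 4.28 and 4.95.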

How the data were processed

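The authors trimmed reads with fastp, aligned them with STAR to mm39 and summarised them over exons using featureCounts, multi-mapping reads as fractions (strand setting not given in the sources used here). Genes passed at CPM over 1 in 3 or more samples, followed by TMM scaling and voom. The authors deposited log2 CPM values, made with 0.5 added to each count, for 18180 genes and 12 samples. The lowest value of each library was taken as 0 reads to recover the others, of which 41.35% to 59.17% per library came out whole within 0.01.

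A limma 3.58.1 model (R 4.3.3) used all genes and 12 libraries, with population terms and tumor blocks, and a mean-variance trend, and p-values were adjusted by the Benjamini-Hochberg method over all genes. Tests were two-sided. Tumors pair the populations: the mean correlation of deviations of libraries from the same tumor was 0.486 over 18 pairs (0.14 to 0.662). The 3 tumors are the replicates. The code was tested on simulated data.

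Members and lists were chosen with earlier results of these data known. All members are named, with, in the astrocyte lists, genes drawn from the 3 largest positive and 3 largest negative differences that were called and had 1 direction in 3 tumors, and the genes most like the members in Pearson's r. Egfr was added after its values were seen. Lengths are exon unions from GENCODE M21 (GRCm38). Alternatives changed the block, the samples fitted, the trend, weights, centring, quantile normalization, a filter and the pseudocount, or left out each tumor. Some items, part of the genotype among them, are not reported here. Ependymal markers were set aside because 2 of 8 were measured. Figures were drawn with matplotlib 3.10.9.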

Additional observations from a re-analysis of the deposited data

Results flagged for a closer look

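For 6 members the difference between the log2 fold changes (GAL1+ over GAL1- minus PDGFRA+ over PDGFRA-) was called in limma. Over all genes 51.1% were called, 24.9% in the same, negative direction. Fold changes of opposite sign add up in this difference, so it cannot tell whether the sorts split the cells differently or alike with the gates reversed. The values were -3.91 for Slc1a2, -2.41 for Slc1a3, -2.54 for Fabp7, -3.14 for Clu and -1.69 for Sparcl1, each in 3 of 3 tumors. For S100b the value was -1.01, in 2 of 3 tumors, and it was not called without T3, without T5 or without the PDGFRA- library of T5. The PDGFRA- library of T5, whose pan-leukocyte level was the highest of its group, enters all of these values. Without it 5 of the 6 were called.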

How the results depend on the processing

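The number of members called between GAL1+ and GAL1- cells (6) was 5 to 7 when a tumor or the PDGFRA- library of T5 was left out, and 5 without the block that pairs populations by tumor. Between PDGFRA+ and GAL1+ cells it was 5 to 6, but 3 without the block, and between PDGFRA+ and PDGFRA- cells it stayed at 0 of 10 members and 0 of 18180 genes in the 13 alternatives. Fitting PDGFRA+ and GAL1- libraries alone called 1 member in place of 0, with 3386 of 18180 genes called in place of 1504. Between PDGFRA- and GAL1+ cells (3) the count was 1 without the block, 1 without the mean-variance trend and 0 to 7 with libraries left out. Over all genes 725, 2693 and 0 to 5837 were called in these fits, in place of 3652. Between PDGFRA- and GAL1- cells (3) it was 1 without the block, 0 with the compared groups alone, 5 after quantile normalization, 5 after centring on the sample median and 1 to 2 with libraries left out. Over all genes 1444, 1328, 4765, 4765 and 920 to 3287 were called in these fits, in place of 4200. The sort difference (6) gave 4 without the block, with 6692 genes called in place of 9290.

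Reversals concerned differences that were not called. With libraries left out, GAL1+ over GAL1- ran from -0.72 to 0.20 for Gfap and from -0.85 to 0.38 for Aldh1l1, and PDGFRA+ over PDGFRA- from -0.99 to 0.0016 for Gfap, from -0.28 to 0.58 for Aldh1l1 and from -1.51 to 0.48 for Gja1. PDGFRA+ over GAL1+ ran from -0.19 to 0.51 for Gfap and from -0.26 to 0.71 for Aldh1l1. The sort difference ran from -0.53 to 1.19 for Gfap, from -0.68 to 0.26 for Aqp4 and from -1.43 to 0.66 for Aldh1l1, and with voom weights it was 0.0878 for Aqp4. The causes were not tested. Of the single-member values recomputed (all members in the GAL1, PDGFRA and PDGFRA+ over GAL1+ comparisons and the sort difference, and in the other comparisons the members called), 533 kept their direction and side of the threshold, 36 lost the call, 3 gained it and 16 reversed.

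Genes called over the whole table, 6900 for PDGFRA+ over GAL1+, fell to 3154 without the block and 2110 without T3. For PDGFRA- over GAL1+ 3652 became 725 without the block and 0 without T4, for PDGFRA- over GAL1- 4200 became 1444 without the block and 920 without T5, and for PDGFRA+ over GAL1- 1504 became 612 without the block and 0 without T3. Aqp4, at 21 reads in its thinnest library, is the member whose level depth limits most.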

Other observations

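Genes of the AC-like state of glioma cells, were listed apart from the 10 members. Of 28 measured genes, 8 of them shared with the mature astrocyte list, 19 were called lower and 8 higher in GAL1+ than in GAL1- cells, with a median log2 fold change of -1.48. Over all genes 29.3% were called lower and 28.9% higher, so that the share of the list called higher stood at the background. Bcan, which encodes the brain proteoglycan brevican, stood at a log2 CPM of 9.21, 9.01 and 9.02 in GAL1- and at 7.60, 5.89 and 5.43 in GAL1+ libraries of T3, T4 and T5 (-2.77 ± 0.32, adjusted p = 0.000102). Ptprz1, a receptor phosphatase of neural progenitors and OPCs, was also lower (-2.48 ± 0.32, adjusted p = 0.000177). Gatm, an enzyme of creatine synthesis, went the other way: 7.39, 7.22 and 7.25 in GAL1- against 10.24, 10.37 and 11.01 in GAL1+ libraries (3.26 ± 0.40, adjusted p = 0.000142). Pltp, a phospholipid transfer protein also known from macrophages, was 2.96 ± 0.24 higher (adjusted p = 3.93e-05). Between PDGFRA+ and GAL1+ cells, PDGFRA+ cells had the higher level for 17 and the lower level for 6 of the 28, the others not being called, where 20.9% of all genes were called higher and 17% lower.

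Over the 12 libraries, which share tumors and sorts, Pearson's r between members was highest for Slc1a3 and Fabp7 (0.975). Genes that differ alike between GAL1+ and GAL1- libraries tend to correlate over them by construction, so these values add no support to that comparison. Aqp4, which was not called there, had an r of 0.798 with Fabp7, 0.744 with Slc1a3 and 0.726 with Sparcl1, and of -0.63 with Aldh1l1. Gfap had its highest r with Gja1 (0.759). Among the genes whose pattern was most like the mean of the members' standardised values were Cald1 (r = 0.964), Pcdhga10 (0.963), Phlda3 (0.961) and Klhdc10 (0.96). The gene most like Slc1a2 was Cspg5 (0.99), a proteoglycan of neural cells, and the one most like S100b was Gjc3 (0.953), a connexin of oligodendrocytes. The closest genes were Fam149a for Slc1a3 (0.989), Erich3 for Fabp7 (0.995), Eef1a2 for Clu (0.991), Cenpi for Sparcl1 (0.985), Samd5 for Gja1 (0.98), Amot for Gfap (0.945), Ppl for Aldh1l1 (0.942) and Pex3 for Aqp4 (0.916). These were picked as the highest of all genes over 12 libraries and carry no test.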
